A study of Mus musculus with 6 samples.

Results

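Cyp7a1, Abca1, Decr1, Ttpa and Slc44a1 are 5 genes of bile acid, sterol and lipid handling in the liver, and each was chosen by its symbol, as 5 of the 55357 rows of the count table. They were chosen with earlier results of these data known, and the p-values below do not account for that choice. Liver RNA of C57BL/6 mice (C57BL/6N in the methods of the study) was sequenced with 1 library per mouse, from 3 mice kept on 12 h of light and 12 h of dark (NLD, the normal cycle) and 3 mice kept on 8 h of light and 16 h of dark (SD, the short day). All 6 were ABX mice, which drank water with gentamicin, sulbenicillin, cephalosporin and amphotericin B, so the NLD controls carried the perturbed gut microbiota too. By the methods of the study, each mouse had a cage of its own, was fasted before sampling and was killed in the late morning. The labels give day 28 for every sample, while the paper describes a longer feeding period. No sample of mice without antibiotics was analysed here.

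The liver turns cholesterol into bile acids, which are secreted into bile, are modified by gut bacteria and return to the liver through the portal vein. Cyp7a1 encodes the cytochrome P450 that opens the classic route of this synthesis and sets its pace. Bile acids that return from the gut repress its transcription through the receptor Nr1h4 in the liver and through the hormone Fgf15 from the ileum, and its transcript is known to follow the time of day. Abca1 is the transporter that loads cholesterol and phospholipid onto apolipoprotein A-I at the cell surface, the step that forms HDL particles. Decr1 is the mitochondrial dienoyl-CoA reductase that lets unsaturated fatty acids pass through beta-oxidation. Ttpa is the transfer protein with which hepatocytes return vitamin E to the circulation, and Slc44a1 is a choline transporter that feeds the synthesis of phosphatidylcholine.

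The submitters' processing notes name the genome build GRCm38, whereas the methods of the study name GRCm39, and the coordinates of most genes differ between them. The 5 genes lie near the start of chromosome 4, where the builds share their coordinates, so that the row of each gene collects reads of the gene it names under either build. In GRCm39, Cyp7a1 lies at chr4:6265612-6275633 on the minus strand, Decr1 at chr4:15912432-15945649 on the minus strand and Ttpa at chr4:20007938-20031631 on the plus strand. Abca1 lies at chr4:53030787-53159900 on the minus strand and Slc44a1 at chr4:53440223-53622479 on the plus strand. All are protein-coding, and on chromosome 4 the genes with shared coordinates (position-stable genes from here on) end at base 60222599. Of 21113 protein-coding rows matched in both builds, 536 (2.54%) were position-stable. Inside Slc44a1 lies 1700060J05Rik on the opposite strand, with counts of at most 9 per library, and inside Decr1 lies Mir6400 on the same strand, with at most 3.

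RefSeq promoter sequences (250 bases before to 50 after the start, GRCm38.p6) were at hand for Abca1 and Slc44a1. None was at hand for Cyp7a1, Decr1 or Ttpa, so the choice of these sequences does not rest on the levels of the genes. The sequences of Abca1 and Slc44a1 are shown because they bear on the build. Each of the 300 bases of either sequence stood at the same coordinates in GRCm39. Capitals mark matches on either strand to CACGTG (an E-box, the motif of clock and other factors) and TATAAA (the core of many promoters that start at a fixed base). The Abca1 sequence is chr4:53159846-53160145, minus strand, and the Slc44a1 sequence is chr4:53440163-53440462, plus strand.
Abca1: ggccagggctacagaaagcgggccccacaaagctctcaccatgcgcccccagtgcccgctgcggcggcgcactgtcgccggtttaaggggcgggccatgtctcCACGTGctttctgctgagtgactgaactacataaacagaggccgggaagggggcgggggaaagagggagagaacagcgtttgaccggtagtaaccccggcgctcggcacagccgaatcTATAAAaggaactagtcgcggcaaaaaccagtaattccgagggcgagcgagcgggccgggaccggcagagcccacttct
Slc44a1: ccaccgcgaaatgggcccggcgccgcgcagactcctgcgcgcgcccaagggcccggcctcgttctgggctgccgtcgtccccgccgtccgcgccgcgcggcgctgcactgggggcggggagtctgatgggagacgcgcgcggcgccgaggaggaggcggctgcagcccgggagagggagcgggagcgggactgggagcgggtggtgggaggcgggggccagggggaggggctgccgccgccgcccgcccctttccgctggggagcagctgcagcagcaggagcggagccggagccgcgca
Abca1 had CACGTG from base -147 to -142 and TATAAA from base -29 to -24, counted from the start, and Slc44a1 had neither. Of 32851 RefSeq promoters of this length, 7.15% held CACGTG and 13.6% held TATAAA. The sequence of Slc44a1 was 79.7% G and C and that of Abca1 62.7%, against a median of 52.7% over all promoters. Neither sequence held AGGTCA (the core motif of many nuclear receptors, in 16.3% of promoters), TCAAGG (the core bound by Nr5a2, in 14.4%) or TTATGTAA (a D-box, in 0.938%). These motifs do not overlap each other in the 2 sequences, and a match or its absence in these windows is a description of letters only.

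The libraries held between 5497797 and 6932965 counts. Levels are given in CPM, counts relative to the library size after TMM scaling (which evens out the composition of libraries), and 7261 rows passed the filter on low counts of edgeR, all 5 genes among them. A value after ± is a standard deviation over the mice of a group, and in its parentheses SD stands for that and not for the short day. For SD against NLD, edgeR's quasi-likelihood test was used, and p-values were adjusted over these 7261 rows by the Benjamini-Hochberg method. On the first principal component of log2 CPM (30.3% of the variance), NLD replicates 2 and 3 stood at 75.0 and 27.7, and the other libraries between -44.7 and -13.3, so log2 fold changes of the 5 genes without these libraries are given too. Of 23 hepatocyte markers, 13 were at 0 in every library, and position-stable ones were abundant. Pon1, a secreted esterase, ranged from 13014 to 18514 CPM, and Baat from 2386 to 3394. The 9 markers of Kupffer cells and macrophages were all at 0, and none of their rows is position-stable. No endothelial marker was position-stable, and the summed rows that carry their names were 1685 to 2259 CPM under NLD and 1920 to 2062 under SD, and Col1a2, a collagen of stellate cells and position-stable, was 128 to 250 CPM under NLD and 141 to 317 under SD.

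In the liver of ABX mice, Cyp7a1 and Abca1 were higher in every SD library than in every NLD library, and Decr1 was lower in every SD library. Ttpa and Slc44a1 had overlapping groups. None of the 5 passed an adjusted p of 0.05 from edgeR, where 0.289% of all rows did. At an unadjusted p under 0.05 from edgeR, 2 of the 5 were higher, as were 4.46% of all rows, and 1 was lower, as were 4.02%. DESeq2 called Cyp7a1 and Abca1 higher at an adjusted p under 0.05, where it called 0.969% of all rows higher. Groups without overlap, higher under SD, were seen in 9.08% of all rows, and lower in 7.93%. Among the 347 tested position-stable rows these shares were 13.5% and 8.65%. In those rows, 7.78% had an unadjusted p under 0.05 from edgeR and were higher, 5.76% had one and were lower, and 4.06% were called higher by DESeq2. An exact permutation test of 1 gene with 3 mice against 3 cannot go below a p of 0.10, which Cyp7a1, Abca1 and Decr1 each reached. In bulk liver, fewer cells of a type and less RNA per cell cannot be told apart. The p-values measure the spread between these mice.

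**Figure D1:**
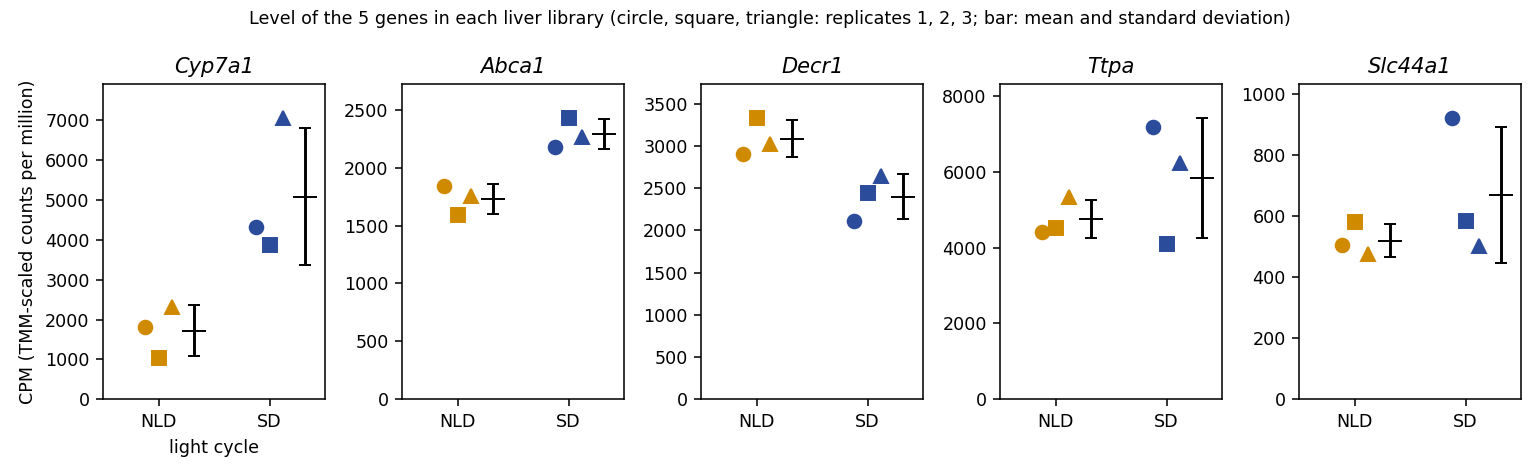
CPM (TMM-scaled, vertical axis from 0) of each gene in the 3 NLD libraries (orange) and 3 SD libraries (blue), with the mean and standard deviation as a black bar. Cyp7a1 ranges from 1041 to 2325 under NLD and from 3868 to 7047 under SD, while the groups of Ttpa and Slc44a1 overlap.

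Cyp7a1 had 1804, 1041 and 2325 CPM in NLD replicates 1, 2 and 3. It had 4327, 3868 and 7047 CPM in SD replicates 1, 2 and 3. The lowest SD library lay above the highest NLD library, and the lowest level of all was in NLD replicate 2 and the highest in SD replicate 3. The means were 1723 ± 646 CPM (SD, n = 3) and 5081 ± 1718 (SD, n = 3), a 2.95-fold higher level under the short day with a 95% interval of 1.60 to 5.42. The log2 fold change was 1.56 (standard error 0.36), with an unadjusted p of 0.00455 and an adjusted p of 0.327 from edgeR's quasi-likelihood test. DESeq2 gave it an adjusted p of 8.75e-04, and 4.39e-05 with no filter. Cyp7a1 held 0.0964% to 0.221% of the counts of an NLD library and 0.380% to 0.704% of those of an SD library. It also had the widest spread within NLD among the 5 genes, a coefficient of variation of 37.5% under NLD and 33.8% under SD. Its log2 fold change was 1.29 without NLD replicate 2, 1.84 without NLD replicate 3 and 1.49 without both, and 1.25 without SD replicate 3. Among the 347 tested position-stable rows its log2 fold change ranked 9th from the top, and among all 7261 rows it ranked 197th. By the methods of the study, lights came on at the same hour in both groups and went off earlier under SD. All mice were killed in the late morning. Levels of Cyp7a1 at other times of day, and a shift of its daily course, were therefore not tested.

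Abca1 was the other gene with higher values in every SD library, by a smaller and more even step. It had 1842, 1587 and 1754 CPM in NLD replicates 1, 2 and 3 and 2180, 2427 and 2265 CPM in SD replicates 1, 2 and 3. The highest NLD library stayed below the lowest SD library, although the libraries with the most and the least Cyp7a1 under SD were not those with the most and the least Abca1. The means were 1728 ± 129 CPM (SD, n = 3) and 2291 ± 126 (SD, n = 3), a 1.33-fold higher level with a 95% interval of 1.09 to 1.61. The log2 fold change was 0.41 (standard error 0.12), with an unadjusted p of 0.0120 and an adjusted p of 0.441 from edgeR. DESeq2 gave an adjusted p of 0.0398 with the filter and 0.560 with no filter. The level varied little between mice of a group, by 7.49% of the mean under NLD and 5.48% under SD. Without NLD replicates 2 and 3 the log2 fold change was 0.32.

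Decr1 was the gene of the 5 with lower values in every SD library. It had 2904, 3327 and 3027 CPM in NLD replicates 1, 2 and 3 and 2110, 2442 and 2640 CPM in SD replicates 1, 2 and 3. The highest SD library, SD replicate 3, lay below the lowest NLD library, NLD replicate 1. The means were 3086 ± 218 CPM (SD, n = 3) and 2397 ± 268 (SD, n = 3), so that the SD level was 0.777 times the NLD level with a 95% interval of 0.623 to 0.969. The log2 fold change was -0.36 (standard error 0.13), with an unadjusted p of 0.0310 and an adjusted p of 0.578 from edgeR, and DESeq2 gave an adjusted p of 0.197. It was -0.28 without SD replicate 1, the library with the least Decr1, and -0.28 without NLD replicates 2 and 3.

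Ttpa had no consistent order between the groups. It had 4405, 4522 and 5325 CPM in NLD replicates 1, 2 and 3 and 7181, 4094 and 6231 CPM in SD replicates 1, 2 and 3. SD replicate 2 was the lowest of the 6 libraries, and the other SD libraries were the highest. The means were 4751 ± 501 CPM (SD, n = 3) and 5835 ± 1581 (SD, n = 3), with a log2 fold change of 0.30, a standard error of 0.22 and an adjusted p of 0.714 from edgeR. The 95% interval of the ratio ran from 0.851 to 1.77, on both sides of an equal level. Without SD replicate 2 the log2 fold change was 0.49, without SD replicate 1 it was 0.12, and without NLD replicates 2 and 3 it was 0.41.

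Slc44a1 was set apart in a single library. It had 505, 580 and 476 CPM in NLD replicates 1, 2 and 3 and 921, 585 and 503 CPM in SD replicates 1, 2 and 3. SD replicate 1 lay far above the rest, and SD replicates 2 and 3 were within or next to the range of NLD. The means were 520 ± 53.8 CPM (SD, n = 3) and 670 ± 222 (SD, n = 3), with a log2 fold change of 0.36, a standard error of 0.24 and an adjusted p of 0.694 from edgeR. The 95% interval of the ratio was 0.862 to 1.92. Without SD replicate 1 the log2 fold change was 0.07, and without NLD replicates 2 and 3 it was 0.41.

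**Figure D2:**
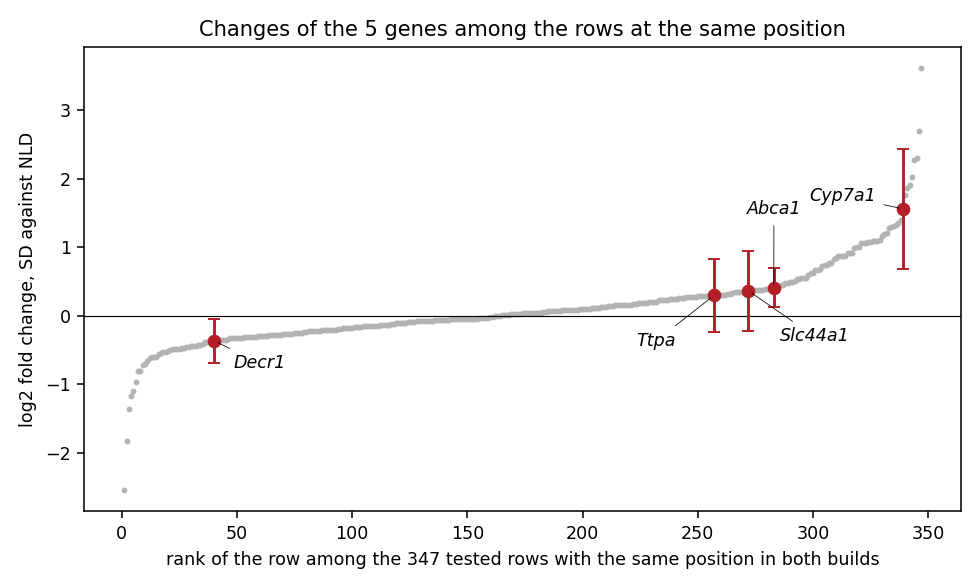
Log2 fold change of SD against NLD (vertical axis) of the 347 tested position-stable rows, sorted by size (horizontal axis, rank), in grey, with the 5 genes in red and their 95% intervals. Cyp7a1 stands at 1.56 near the upper end, Abca1, Slc44a1 and Ttpa between 0.30 and 0.41, and Decr1 at -0.36.

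To set the genes side by side, levels were divided by the length of the canonical transcript (4172 bases for Cyp7a1, 10267 for Abca1, 2960 for Decr1, 3161 for Ttpa and 3225 for Slc44a1). The exons of all transcripts of a gene together span 4174 bases for Cyp7a1, 12277 for Abca1, 6455 for Decr1, 5191 for Ttpa and 12819 for Slc44a1. Which transcripts the reads came from was not tested. The order and overlaps below hold for the canonical length, and another length can change them. Per kilobase and under NLD, Ttpa was the highest with 1503 ± 158 CPM per kb (SD, n = 3), followed by Decr1 with 1043 ± 73.5 and Cyp7a1 with 413 ± 155. Abca1 with 168 ± 12.6 and Slc44a1 with 161 ± 16.7 CPM per kb (SD, n = 3 each) had overlapping ranges, and the other neighbours in this order did not overlap. Under SD the order of Cyp7a1 and Decr1 was the other way round. Cyp7a1 had 927 to 1689 CPM per kb in the SD libraries and Decr1 713 to 892, against 249 to 557 and 981 to 1124 in the NLD libraries. Under SD, Cyp7a1 also reached into the range of Ttpa, which had 1295 to 2272 CPM per kb. Abca1 (212 to 236) and Slc44a1 (156 to 286) overlapped again. The 5 genes together made up 1.02% to 1.23% of the counts of an NLD library and 1.32% to 1.87% of an SD library.

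The log2 ratio of Cyp7a1 to each other gene was compared between the groups, since such a ratio within a library does not depend on its scaling. The log2 ratio to Abca1 was -0.03, -0.61 and 0.41 in NLD replicates 1, 2 and 3 and 0.99, 0.67 and 1.64 in SD replicates 1, 2 and 3, without overlap, although both genes were higher under SD. The mean log2 ratio was 1.18 higher under SD than under NLD for Abca1, 1.95 higher for Decr1, 1.32 higher for Ttpa and 1.27 higher for Slc44a1. The groups overlapped only for Slc44a1, among these 4 ratios. The exact permutation test, two-sided, gave p = 0.10 for the ratios to Abca1, Decr1 and Ttpa, the smallest p that 3 against 3 allows, and p = 0.20 for that to Slc44a1. Adjusted over the 4 ratios these were 0.133 and 0.20 (exact permutation test). All 4 ratios have Cyp7a1 as numerator, so each difference includes the change of Cyp7a1 itself. The tests are therefore not independent of each other or of the result for Cyp7a1.

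Whether the other 4 genes moved with Cyp7a1 was examined over the 6 libraries. Sorted by Cyp7a1, all NLD libraries lay below all SD libraries, with a gap of 0.73 in log2 CPM between the groups. Pooled values are given because the gap between NLD replicates 2 and 1 (0.79) was larger than that. Abca1 had a Pearson r of 0.89 with Cyp7a1 (exact permutation p = 0.0236, adjusted over the 4 relations 0.0944) and a Spearman rho of 0.77 (exact permutation p = 0.103, adjusted 0.206). Decr1 ran the other way, with r = -0.75 (exact permutation p = 0.0861, adjusted 0.172) and rho = -0.77 (exact permutation p = 0.103, adjusted 0.206). Neither relation passed the adjustment. The permutation exchanged libraries across the light cycles, and the groups of Cyp7a1, Abca1 and Decr1 did not overlap. These pooled values therefore cannot tell a difference shared by the groups from a relation between mice. Ttpa had r = 0.58 (exact permutation p = 0.244, adjusted 0.326) and rho = 0.54 (exact permutation p = 0.297, adjusted 0.396). Slc44a1 had r = 0.20 (exact permutation p = 0.710, adjusted 0.710) and rho = 0.09 (exact permutation p = 0.919, adjusted 0.919).

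Without the 2 libraries farthest from the median of Cyp7a1, NLD replicate 2 and SD replicate 3, r was 0.85 for Abca1, -0.91 for Decr1, 0.43 for Ttpa and 0.80 for Slc44a1. The value of Slc44a1 thus rested on which libraries were used, and the 4 that remained held SD replicate 1. After the mean of each group was subtracted, r over the 6 libraries was 0.40 for Abca1, -0.0011 for Decr1, 0.42 for Ttpa and -0.57 for Slc44a1, given as a description, with no test. The value of Decr1 was thus near 0, that of Abca1 was smaller than its pooled r, and that of Slc44a1 had the opposite sign. These values are for log2 CPM. On linear CPM they were -0.02 for Abca1, 0.34 for Decr1, 0.39 for Ttpa and -0.58 for Slc44a1. The values of Abca1 and Decr1 within groups thus rested on the scale.

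**Figure D3:**
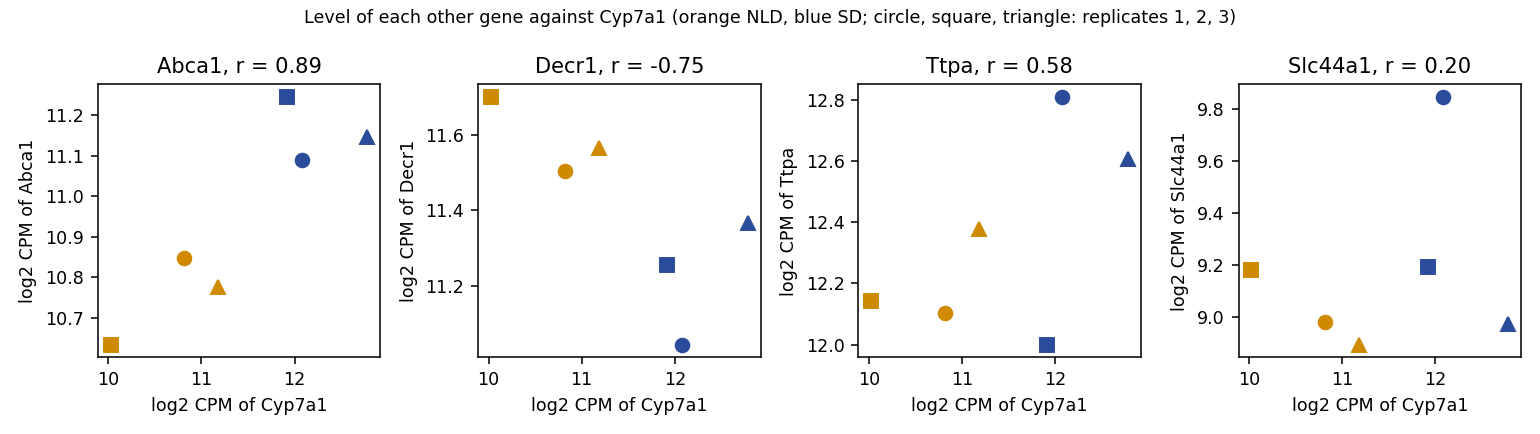
Log2 CPM of Abca1, Decr1, Ttpa and Slc44a1 (vertical axes) against log2 CPM of Cyp7a1 (horizontal axes) in the 3 NLD libraries (orange) and 3 SD libraries (blue). Abca1 lies higher and Decr1 lower on the SD side, with r of 0.89 and -0.75, while Ttpa and Slc44a1 scatter.

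How common such values are was read from the other position-stable rows. Over 316 protein-coding rows with a mean of at least 5 CPM and a count in every library, r with Cyp7a1 ran from -0.97 to 0.98, with a median of -0.04. An r at least as large in size as that of Abca1 was found in 6.65% of these rows, as that of Decr1 in 22.2%, of Ttpa in 40.8% and of Slc44a1 in 82%. The 5 rows most like Cyp7a1 by r over the 6 libraries were Chd7, a chromatin remodeler (0.98), Pon2, an esterase (0.97), Usp45, a deubiquitinase (0.96), Slc25a51, the mitochondrial carrier of NAD (0.96), and Klhdc10, a kelch-repeat protein (0.95). Abca1 came 12th in this order. Chd7 had 138, 110 and 176 CPM in NLD replicates 1, 2 and 3 and 236, 223 and 260 CPM in SD replicates 1, 2 and 3, so its libraries stood in the same order as those of Cyp7a1. Klhdc10 had 427, 246 and 359 CPM in NLD replicates 1, 2 and 3 and 730, 674 and 767 CPM in SD replicates 1, 2 and 3. None of these 5 rows passed an adjusted p of 0.05 from edgeR (0.228 for Klhdc10, the smallest of them), 3 of them had an unadjusted p under 0.05, and Chd7 had a log2 fold change of 0.76 (adjusted p = 0.383).

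**Figure D4:**
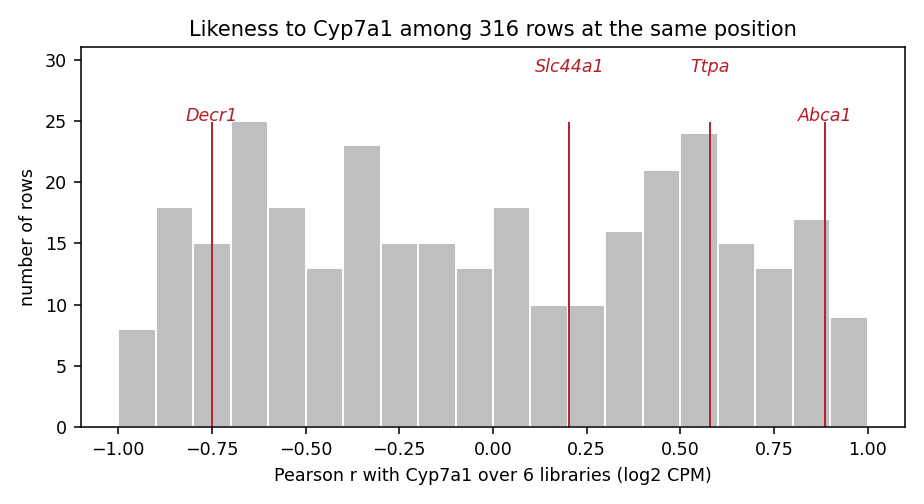
Number of rows (vertical axis) by Pearson r with Cyp7a1 over the 6 libraries (horizontal axis), for 316 position-stable rows. The red lines mark Decr1 at -0.75, Slc44a1 at 0.20, Ttpa at 0.58 and Abca1 at 0.89.

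The other genes of these pathways were taken from 7 lists with 154 genes, of which 72 were at 0 in every library and 45 could be tested. Only 6 of these 45, the 5 genes and Baat, are position-stable, so the other rows may hold reads of other genes. Of the 40 rows other than the 5 genes, none passed an adjusted p of 0.05 from edgeR or from DESeq2, and none had an unadjusted p under 0.05 from edgeR. Their log2 fold change was above 0 in 19 rows and below 0 in 21, with a median of -0.04, against 0.03 over all 7261 rows.

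Baat, which joins bile acids to taurine or glycine at the end of their synthesis, did not follow Cyp7a1. It had 3023, 3294 and 3394 CPM in NLD replicates 1, 2 and 3 and 3448, 2386 and 2965 CPM in SD replicates 1, 2 and 3. The groups overlapped, and SD replicates 1 and 2 were the highest and the lowest of all. Its log2 fold change was -0.14, with a standard error of 0.16 and an adjusted p of 0.830 from edgeR. Of 8 tested rows of bile acid synthesis, 4 were above 0 and 4 below, with a median of 0.06. The row named Amacr, the racemase that acts on the side chain of bile acid precursors, had 1579 ± 160 CPM under NLD and 1309 ± 216 under SD (SD, n = 3 each, adjusted p = 0.671 from edgeR), with overlapping groups. The row named Akr1d1, the reductase of the bile acid ring, had 102 ± 47.9 CPM under NLD and 138 ± 58.3 under SD (SD, n = 3 each), and the row named Akr1c6 24.9 ± 7.34 and 20.3 ± 6.78. Amacr and Akr1d1 lie at shifted positions that still overlap between the builds, and those of Akr1c6 do not overlap.

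In bile acid transport and regulation, 10 of 24 genes were tested, 6 above 0 and 4 below. The row named Abcb4, the exporter of phosphatidylcholine into bile, had 44.2, 51.0 and 50.1 CPM in NLD replicates 1, 2 and 3 and 34.5, 27.0 and 41.7 CPM in SD replicates 1, 2 and 3. Its groups did not overlap, with lower values under SD, and its adjusted p was 0.589 from edgeR. The row named Cyp3a11, a cytochrome P450 that hydroxylates bile acids and drugs, had 349 ± 113 CPM under NLD and 508 ± 115 under SD (SD, n = 3 each, adjusted p = 0.629 from edgeR), with overlapping groups. The row named Fgfr4, the receptor through which Fgf15 acts on hepatocytes, had 67.7 ± 3.45 CPM under NLD and 78.3 ± 8.86 under SD (SD, n = 3 each, adjusted p = 0.704 from edgeR), and that named Klb, its co-receptor, 14.3 ± 2.39 and 19.3 ± 5.17. The groups of the row named Fgfr4 did not overlap, with higher values under SD (63.7 to 70.1 CPM under NLD, 73.1 to 88.6 under SD). Those of the row named Klb overlapped.

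In cholesterol efflux and HDL, 5 of 24 genes were tested and 10 were at 0 throughout. The row named Abcg8, a subunit of the sterol exporter into bile, had 120 ± 8.26 CPM under NLD and 147 ± 18.9 under SD (SD, n = 3 each, adjusted p = 0.631 from edgeR), with overlapping groups. In cholesterol synthesis and uptake, 5 of 27 genes were tested, 1 above 0 and 4 below. Apart from Abca1, none of the tested rows of these lists was position-stable, and their read content was not tested.

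In beta-oxidation, 5 of 30 genes were tested and 19 were at 0 throughout, so that Decr1 stood nearly alone. The row named Acadvl, the dehydrogenase of very long chains, had 7.80 ± 2.87 CPM under NLD and 14.3 ± 3.81 under SD (SD, n = 3 each, adjusted p = 0.598 from edgeR), the opposite direction to Decr1 and without overlap of the groups. In vitamin E handling, 4 of 14 genes were tested, all above 0, Ttpa and Abca1 among them. The row named Sec14l2, a tocopherol-binding protein, had 983 ± 159 CPM under NLD and 1119 ± 234 under SD (SD, n = 3 each, adjusted p = 0.816 from edgeR). In choline and phosphatidylcholine metabolism, 11 of 25 genes were tested, 4 above 0 and 7 below, with a median of -0.11. The row named Pcyt2, of phosphatidylethanolamine synthesis, had 4.96 ± 2.18 CPM under NLD and 2.42 ± 1.16 under SD (SD, n = 3 each, adjusted p = 0.631 from edgeR), with overlapping groups. Its positions do not overlap between the builds.

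**Figure D5:**
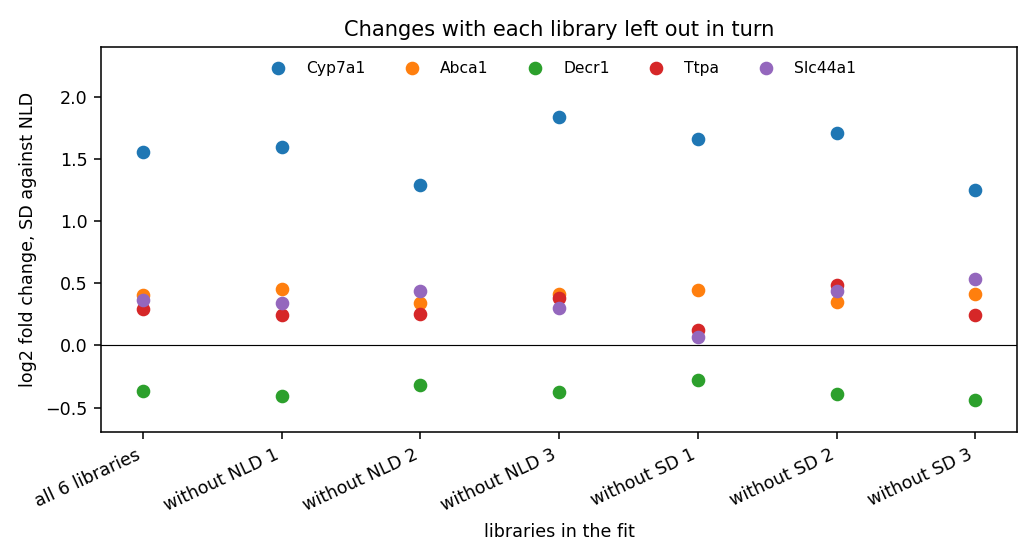
Log2 fold change of SD against NLD (vertical axis) of the 5 genes in the fit with all 6 libraries and with each library left out in turn (horizontal axis). Cyp7a1 stays between 1.25 and 1.84 and Decr1 below 0, while Slc44a1 is at 0.07 and Ttpa at 0.12 without SD replicate 1.

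With each library left out in turn, the log2 fold change of Abca1 lay between 0.34 and 0.46 and that of Decr1 between -0.44 and -0.28. That of Slc44a1 (0.07 to 0.53) moved most without SD replicate 1, which had the most of this transcript, and that of Ttpa (0.12 to 0.49) moved about as far without SD replicate 1 as without SD replicate 2, in opposite directions. Adjusted p-values from edgeR stayed above 0.05 for the 5 genes in each of these fits.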

How the data were processed

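Liver RNA of 6 mice was analysed. The deposited values are whole-number counts for each gene, not normalized, which the authors made with fastp, HISAT2 and StringTie. Not given in the sources used here: the strand setting, and the step from StringTie to counts. Hence overlapping and antisense genes cannot be told apart. Library totals of 5497797 to 6932965 limit the precision. Within each group, libraries differed beyond sampling noise (chi-square per row of at least 31.5), and none was counted as a repeat.

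The test used edgeR 4.0.16 under R 4.3.3 (TMM, filterByExpr, robust quasi-likelihood fit, two-sided test, SD against NLD over all rows). The standard error is the log2 fold change divided by the root of F. The fit was tested on simulated data with known changes. With the dispersion of these libraries, an adjusted p under 0.05 found 0.299% of 1.5-fold, 0.299% of 2-fold and 28.5% of 4-fold changes. Of its calls, 15.8% were false. With the dispersion multiplied by 0.1, it found 34.9%, 66.0% and 91.5%, and 8.57% of its calls were false. A gene that missed the threshold is thus not shown to have an equal level. Alternatives were RLE and upper quartile factors, other filters, no robust estimation, DESeq2 1.42.0, a replicate block, leaving out each library, the 10 most abundant rows left out and position-stable rows only. Leaving out NLD replicates 2 and 3 together was chosen after seeing the data.

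A gene was called position-stable when its nearer end differed by at most 2000 bp between GENCODE GRCm39 (by gene ID) and RefSeq GRCm38.p6 (by symbol) and the median difference of 11 neighbours was at most 10 bp. Named were the 5 genes, position-stable list members, up to 4 others per list with the smallest p, and the 5 rows with the highest r with Cyp7a1; some genes under this rule are not reported here. Members and lists were chosen with earlier results of these data known.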

Additional observations from a re-analysis of the deposited data

How the results depend on the processing

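The log2 fold changes of the 5 genes kept their direction under all 17 alternatives, 85 values in all. DESeq2 with the filter put Cyp7a1 (1.55) and Abca1 (0.40) past the threshold, and DESeq2 with no filter put Cyp7a1 (1.55) past it. The adjusted p of Cyp7a1 otherwise ran from 0.123, when only position-stable rows entered the fit, to 0.745 without NLD replicates 2 and 3. The 21 rows with an adjusted p under 0.05 became 44 with no filter, 137 and 89 with DESeq2 with and without the filter, 1 among position-stable rows alone and 37 without NLD replicates 2 and 3. With each library left out in turn the count ran from 0, without any 1 of the SD libraries, to 30 without NLD replicate 1, and the cause was not tested. With the replicate number as a block it was 0 in edgeR (766 rows at an unadjusted p under 0.05), and Cyp7a1 had a log2 fold change of 1.59 and an adjusted p of 0.323. Deviations from the group means correlated at 0.10, 0.09 and 0.04 between libraries of the same number, where each library correlated best with its own number, a hint from the data alone, so the numbers were not taken to pair the mice. The 12 values of the pooled r with Cyp7a1 under other scales or fewer libraries kept their sign. After the group means were subtracted, r changed its sign on linear CPM for Abca1 and for Decr1. With 3 mice per group and the spread seen under SD, the intervals of Ttpa and Slc44a1 included an equal level.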
